A study of Homo sapiens with 68 samples.

Results

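The experiment described here is the exposure of A673 cells to ARA-C (cytarabine) at 0.34 µM, 2 times the EC50, for 3 days. Its 3 arrays were chosen by their labels from the 68 arrays of the series and were set against the 5 arrays of A673 cells kept for 3 days in DMSO, the vehicle. The series measured the same line after ARA-C, doxorubicin, puromycin or vehicle for 24 h, 3 days or 5 days, on Affymetrix arrays of the plate format. The study listed the row of the array plate on which each sample was run, and the 3 ARA-C arrays lay in rows G-H together with vehicle replicates 4 to 6, while vehicle replicates 1 and 2 lay in rows A-F. Each comparison was therefore repeated against vehicle replicates 4 to 6 alone. A673 is a human Ewing sarcoma line carrying the EWS/FLI translocation, and all groups are this 1 line grown in DMEM with fetal calf serum. The labels call the replicates biological and do not describe how the cultures were separated, so the errors given measure the spread between these arrays. Other groups used were ARA-C at 0.17 µM, the EC50, for 3 days (3 arrays), ARA-C at 0.34 µM for 24 h and for 5 days (3 each), and the vehicle arrays of rows G-H at 24 h and day 5 (3 each). Among the 68 arrays there is no vehicle replicate 3 of day 3.

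ARA-C is a cytosine nucleoside analogue. It enters cells through nucleoside transporters, is phosphorylated first by deoxycytidine kinase, and as a triphosphate competes with dCTP and stops the growing DNA strand, while cytidine deaminase inactivates it. Cells that replicate slowly in its presence accumulate in S phase, and stalled forks activate checkpoint kinases. In Ewing sarcoma the fusion of EWSR1 with the ETS factor FLI1 both activates and represses genes and holds the cells in an immature state. A673 is known to lack functional p53.

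All values are MAS5 signals, a linear measure of the brightness of a probe set (the group of probes that measures 1 transcript), with values under 10 set to 10, and differences are on the log2 scale of these signals. The median signal of an array was 119 to 134 in ARA-C-treated cells, against 111 to 130 in vehicle-treated cells, and 18.9% to 20.3% and 20.7% to 21.5% of the values lay under 10. The summed signal of 7 genes that mark Ewing sarcoma cells, such as NKX2-2, CD99 and STEAP1, was 46106 to 48476 in ARA-C-treated and 36989 to 40793 in vehicle-treated cells. That of 11 blood cell markers was 125 to 206 and 85 to 561, and none of the 11 differed, with PTPRC, the pan-leukocyte antigen, at 10 to 11.1 in ARA-C-treated and 10 to 12.11 in vehicle-treated cells. The highest vehicle sum was that of replicate 4, with HBA2 at 190.5. The summed signal of 9 epithelial markers was 3053 to 3712 and 2132 to 2670, most of it KRT8. The control probe sets of ACTB gave a 3′ minus 5′ difference of 1.70 ± 0.16 log2 units with ARA-C and 0.53 ± 0.21 with vehicle (SD, n = 3 and 5), higher in 3 of 3 arrays by 1.16 (two-sided exact permutation test, p = 0.0179, the smallest that 56 labelings allow). For GAPDH the values were 0.33 ± 0.10 and -0.05 ± 0.06, a difference of 0.38 (p = 0.0179, exact permutation). The RNA of ARA-C-treated cells thus gave relatively more signal from 3′ ends, and the part of this shift in the results below was not tested.

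After 3 days of ARA-C, 2840 of 22215 probe sets were higher (12.8%) and 2831 were lower (12.7%) than in the 5 vehicle arrays at a Benjamini-Hochberg adjusted p of 0.05 (limma over the 23 day 3 arrays), and the median difference of all probe sets was -0.00. Against vehicle replicates 4 to 6, 2955 were higher (13.3%) and 2550 lower (11.5%). Of these calls 2531 higher and 2351 lower were made in both comparisons, and 0 had opposite directions. Rises were larger than falls. A change of at least 2-fold was reached by 1211 probe sets that rose and 575 that fell, and one of at least 8-fold by 42 that rose and 0 that fell. With 1 probe set per gene, the brightest, 16.6% of 11882 named genes were higher and 13.2% lower against the 5 vehicle arrays, and 17.3% and 11.5% against replicates 4 to 6. These shares are the background for the gene counts below, and the median over all genes was 0.04 and 0.06 in the 2 comparisons. Higher probe sets made up 50.1% of the calls against the 5 vehicle arrays and 53.7% against replicates 4 to 6, and 39.8% and 41.9% when each array was shifted to a common median, which moved the median of all probe sets to -0.10 and -0.11.

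The 12 largest rises were headed by GPNMB, a glycoprotein of lysosomes and melanosomes, which gave 2341, 2351 and 2425 in ARA-C-treated cells, against 86.98, 79.03, 94.99, 78.44 and 72.38 in vehicle-treated cells. The lowest ARA-C array was far above the highest vehicle array, and the rise was 28.9-fold (log2 4.85 ± 0.17, SE; adjusted p = 2.7e-16). GPNMB lies on chromosome 7 at 23246775 to 23275108 (GRCh38.p14). DLK1, a transmembrane regulator of Notch signalling found on immature cells, was the brightest of the 12, with 5410, 4930 and 5512 in ARA-C-treated cells against 236.8, 225.9, 374.4, 387.9 and 378 in vehicle-treated cells. The groups stood apart, and DLK1 was 16.9-fold higher (4.08 ± 0.19, adjusted p = 7.5e-14). Others of the 12 were EGR4, an immediate early zinc finger factor (392.2, 338.9 and 617.2 in ARA-C-treated cells, 10 to 29.2 in vehicle-treated cells), TM4SF1, a tetraspanin-like surface protein (858.4, 743 and 812.6, against 10.67 to 67.58), and CEACAM1, a cell adhesion molecule (740.3, 590.5 and 642.4, against 25.22 to 40.68). APOE, the lipid-carrying apolipoprotein, gave 904.2, 883.4 and 747.3 in ARA-C-treated cells, against 34.91 to 76.12 in vehicle-treated cells. NNMT, which methylates nicotinamide, CLDN5, a tight junction claudin, and VDR, the vitamin D receptor, rose 16.3-, 13.9- and 12.7-fold. GPR18, a G protein-coupled receptor, SEMG1, a protein of semen, and GALNT3, which starts O-glycans, rose 18-, 12.8- and 11.7-fold. In all 12 genes the 3 ARA-C arrays lay above all 5 vehicle arrays, which the rule that named them required. The last 3 and EGR4 touched the floor of 10 in some vehicle arrays, which makes their folds depend on the floor. For 4 of the 7 genes with several probe sets, some probe sets did not pass, among them 1 of TM4SF1 at -0.01 and 1 of APOE at 0.22, both at or near the floor.

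**Figure D1:**
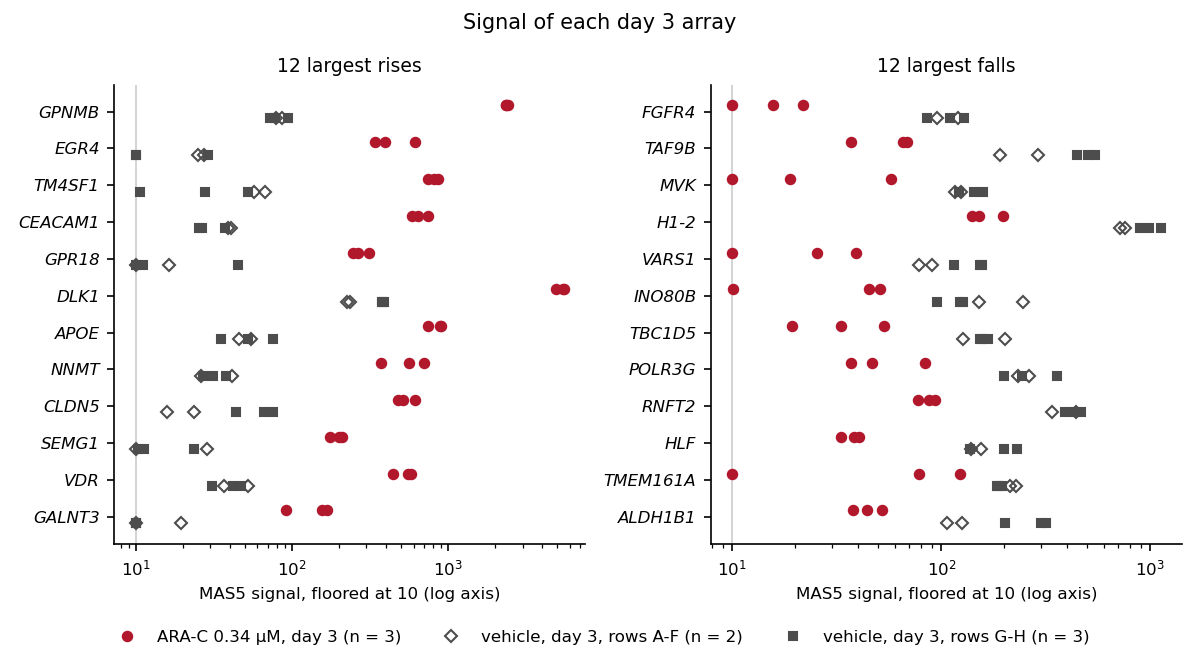
Signal of each day 3 array (MAS5 signal, floored at 10, log axis) for the 12 largest rises and the 12 largest falls among named genes, with ARA-C 0.34 µM and vehicle as separate symbols. The arrays of the 2 groups do not overlap in any of the 24, and the log2 differences of the rises ran from 3.55 for GALNT3 to 4.85 for GPNMB, and those of the falls from -2.11 for ALDH1B1 to -2.83 for FGFR4.

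The 12 largest falls were smaller and came mostly from dim probe sets. H1-2, a linker histone, was the brightest, with 198, 151.4 and 139.4 in ARA-C-treated cells, against 718.9, 759.5, 896.6, 988.3 and 1119 in vehicle-treated cells. Its level with ARA-C was 18.2% of that with vehicle (log2 -2.46 ± 0.15, adjusted p = 1.6e-11), and the groups did not overlap. FGFR4, a fibroblast growth factor receptor, fell to 21.72, 15.62 and 10 in ARA-C-treated cells, against 119.7, 95.17, 110, 85.43 and 129 in vehicle-treated cells (-2.83 ± 0.45, adjusted p = 3.5e-05). A brighter probe set of FGFR4 gave 196.8, 306.2 and 275.8 in ARA-C-treated and 338 to 447.6 in vehicle-treated cells and did not pass (-0.57, adjusted p = 0.078). Of the 10 genes of the 12 with several probe sets, 4 had some that did not pass, FGFR4 and INO80B among them. In others of the 12 the size of the fall differed between probe sets. VARS1, valyl-tRNA synthetase, fell by 2.41 on its named probe set and by 0.71 on the brighter one (adjusted p = 9.3e-05 and 9.9e-05). TBC1D5, a Rab GTPase-activating protein, fell by 2.30 and, on its brightest, by 0.67, and TMEM161A, a membrane protein, by 2.13 and 0.38. TAF9B, a subunit of the TFIID complex, fell to 65.32, 37.1 and 68.2 in ARA-C-treated cells, against 190.5 to 545.6 in vehicle-treated cells, and POLR3G, a subunit of RNA polymerase III, to 36.97, 83.77 and 46.39, against 198.9 to 356.4. RNFT2, a RING finger membrane protein, fell to 93.19, 87.02 and 77.67 with ARA-C, against 339.3 to 467.8 with vehicle. MVK, mevalonate kinase (-2.57), INO80B, a subunit of a chromatin remodeller (-2.31), HLF, a PAR bZIP factor (-2.18), and ALDH1B1, a mitochondrial aldehyde dehydrogenase (-2.11), completed the 12. Another probe set of INO80B gave 75.38, 51.88 and 171.9 in ARA-C-treated and 95.7 to 134.5 in vehicle-treated cells. It overlapped and did not pass (-0.41, adjusted p = 0.62). All 24 also passed against vehicle replicates 4 to 6, as the rule that named them required. Where probe sets of 1 gene differ in this way, the position of the probes within the transcript was not analysed here, and the part of the 3′ shift in it was not tested.

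Of 28 mitosis genes measured, 13 were lower, 1 was higher and 14 did not pass (median -0.20), against 13.2% of named genes lower and 16.6% higher. Many mitotic promoters are known to hold CCAAT boxes bound by NF-Y and the CHR element, TTTGAA, bound by the DREAM and MuvB complexes. In RefSeq promoters of 250 bases before to 50 after the start (GRCh38.p14), 24 of the 28 genes were matched, of which 19 (79.2%) held CCAAT and 13 (54.2%) TTTGAA on either strand, as did 35.7% and 15.4% of all 27305 promoters. The 250 bases before the start of the 2 mitotic genes named most below are shown, with matches in capitals, PLK1 from chr16:23678639-23678888 and CDC20 from chr1:43358731-43358980, both on the plus strand. A match is a run of letters and not a shown binding site. The members were chosen as mitosis genes, so the shares above describe the list and not the effect of ARA-C.
PLK1: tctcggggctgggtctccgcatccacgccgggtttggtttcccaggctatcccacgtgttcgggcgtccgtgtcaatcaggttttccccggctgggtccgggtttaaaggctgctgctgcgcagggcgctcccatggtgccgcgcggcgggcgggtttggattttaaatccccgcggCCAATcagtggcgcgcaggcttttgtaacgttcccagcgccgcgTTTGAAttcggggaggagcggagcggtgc
CDC20: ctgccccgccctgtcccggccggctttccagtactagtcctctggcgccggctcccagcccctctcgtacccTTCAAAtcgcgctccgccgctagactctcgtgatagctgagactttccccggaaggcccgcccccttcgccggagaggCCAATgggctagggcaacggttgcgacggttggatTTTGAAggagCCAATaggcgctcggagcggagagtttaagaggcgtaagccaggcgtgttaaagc

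PLK1, the kinase that drives mitotic entry and spindle assembly, gave 1102, 996.6 and 1120 in ARA-C-treated cells, against 3673, 2931, 2756, 2463 and 3108 in vehicle-treated cells. All ARA-C arrays were below all vehicle arrays, at a mean of 1073 ± 66.8 with ARA-C and 2986 ± 452 with vehicle (SD; log2 -1.47 ± 0.10, SE; adjusted p = 1.5e-10). CDC20, the activator of the anaphase-promoting complex, gave 3367, 3538 and 3577 in ARA-C-treated and 6321, 6291, 6379, 6056 and 6266 in vehicle-treated cells (-0.84 ± 0.06, adjusted p = 1.2e-10). The spindle factor TPX2 (-0.83), the kinase AURKB (-0.80), the centromeric histone CENPA (-0.77) and cyclin B1, CCNB1 (-0.46), were also lower. CENPF, a kinetochore protein, was the 1 gene that rose (0.31, adjusted p = 0.034), and TOP2A, the topoisomerase of mitotic chromosomes, was at 0.14 and did not pass.

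Of 33 DNA replication genes measured, 3 rose and 7 fell (median -0.03). ORC6, of the origin recognition complex, rose by 0.67, with 4631, 4322 and 5883 in ARA-C-treated cells, against 2609 to 3356 in vehicle-treated cells, and the flap endonuclease FEN1 rose by 0.39. POLE2 and POLA1, subunits of polymerases epsilon and alpha, fell by 0.63 and 0.41, and the helicase subunit MCM7 fell by 0.49. Of 21 genes of the G1/S transition, 8 were higher, 2 lower and 11 not called (median 0.13). CDKN1A, the p21 inhibitor of cyclin-dependent kinases, gave 1768, 1768 and 1720 in ARA-C-treated cells, against 461.4, 496.4, 550, 500.1 and 608.6 in vehicle-treated cells. The 3 ARA-C arrays were nearly equal and stood well above the highest vehicle array (1.75 ± 0.11, adjusted p = 2e-11). CCNE1, cyclin E1, which drives S phase entry, gave 1247, 1210 and 1301 with ARA-C and 749.3, 655, 623.8, 587.6 and 636.5 with vehicle (0.95 ± 0.16, adjusted p = 4.2e-05). The D-type cyclin CCND2 (1.36) and the activator E2F3 (0.70) rose as well. CCNE2 passed against the 5 vehicle arrays (1.08, adjusted p = 0.028) and not against replicates 4 to 6 (adjusted p = 0.094). CDKN1B, the p27 inhibitor, fell by 0.75 and the kinase CDK4 by 0.29. SKP2, the ligase subunit that targets p27, showed no shift on its brightest probe set (-0.02) and falls of 1.97 and 2.03 on the other 2 (adjusted p = 2.9e-09 and 0.00034).

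Of 20 genes for deoxycytidine and nucleotide metabolism, 3 rose and 4 fell (median -0.00). Both equilibrative transporters that carry nucleosides were lower. SLC29A1 (ENT1) gave 319.5, 318.9 and 430.3 in ARA-C-treated cells, against 1207, 748.8, 931.1, 786.6 and 1065 in vehicle-treated cells, with no overlap (-1.40 ± 0.24, adjusted p = 6.9e-05). SLC29A2 (ENT2) gave 412, 376.3 and 312.2 with ARA-C and 597.1 to 860.6 with vehicle (-0.98, adjusted p = 3.4e-05). CDA, cytidine deaminase, gave 42.24, 75.31 and 30.41 with ARA-C and was on the floor of 10 in all 5 vehicle arrays (2.20, adjusted p = 5.2e-05), a call that was lost with a floor of 32. DCK, deoxycytidine kinase, was at 1692, 1791 and 1846 in ARA-C-treated and 1289 to 1747 in vehicle-treated cells and did not pass (0.21, adjusted p = 0.24). RRM2, the small subunit of ribonucleotide reductase, rose slightly (0.28, adjusted p = 0.0018).

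Among 26 DNA damage checkpoint and repair genes, 4 rose and 4 fell (median 0.04). The end-joining factor XRCC4 fell by 0.79, NBN, of the MRN complex, by 0.78 and the kinase CHEK2 by 0.55, and FANCI, of the Fanconi pathway, rose by 0.70. Of 20 p53 target genes 7 rose and 1 fell (median 0.10), led by CDKN1A and by TP53I3, a quinone oxidoreductase (447.6, 450.3 and 319.3 in ARA-C-treated cells, 122.1 to 206.2 in vehicle-treated cells, 1.29). GADD45A, a stress sensor, rose by 0.96. BAX, which permeabilises mitochondria, fell by 0.74, and MDM2, the ligase of p53, was at -0.11 (adjusted p = 0.92). Histone genes with polyadenylated transcripts went both ways, with 6 of 14 higher and 4 lower. H2BC5 gave 4079, 3725 and 3488 with ARA-C and 1426, 1395, 1425, 1318 and 1400 with vehicle, a rise of 1.43 ± 0.11 (adjusted p = 3.5e-10), and H2BC4 (1.71) and H2AC6 (1.15) rose beside it. The linker histones H1-2, above, and H1-10 (-1.12) fell. Histone genes share sequence, and their probe sets may read more than 1 gene.

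**Figure D2:**
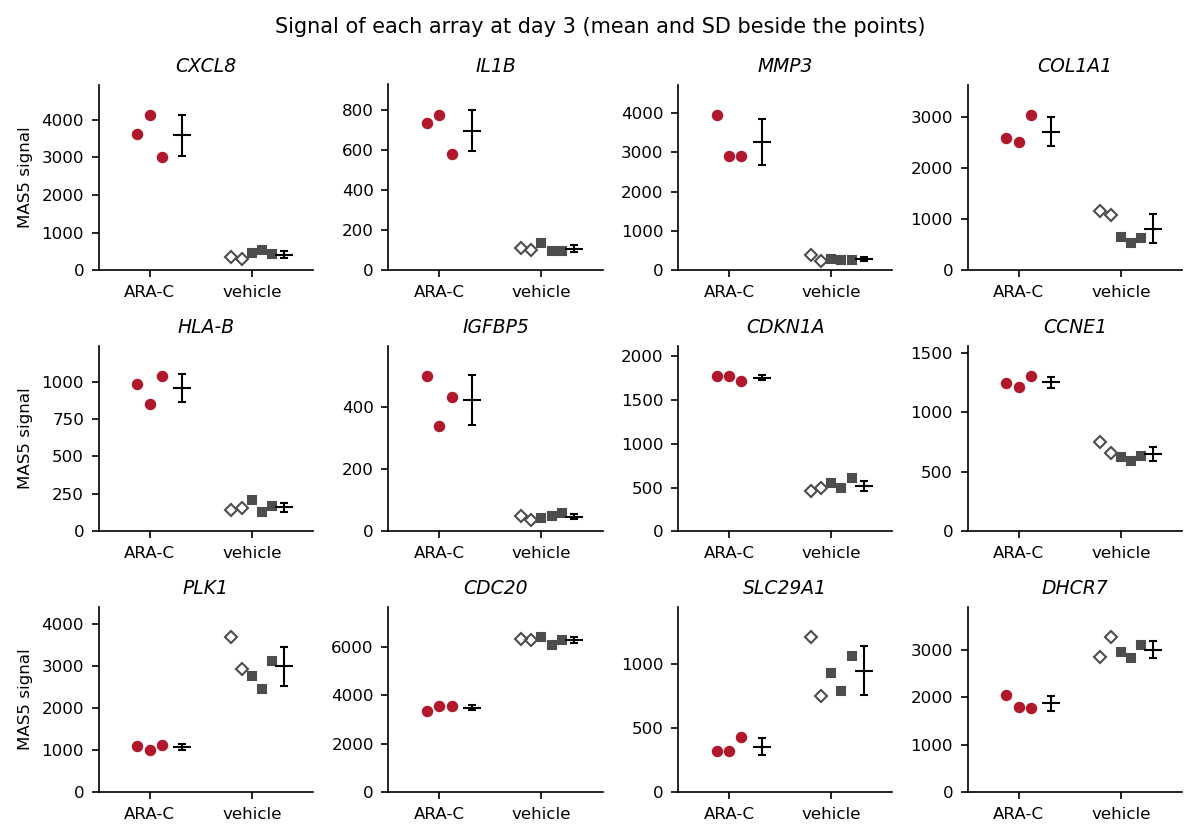
Signal of each array (MAS5 signal, axis from 0) for 12 genes, with ARA-C 0.34 µM left of vehicle at day 3. Open diamonds are vehicle arrays of plate rows A-F, filled squares those of rows G-H, and the mean and SD stand beside the points. In each of the 12 the 3 ARA-C arrays were apart from the 5 vehicle arrays, as for PLK1 with 996.6 to 1120 against 2463 to 3673.

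Of 19 genes of NF-kB and inflammatory cytokines, 12 were higher and 1 lower (median 1.52), against 16.6% and 13.2% of named genes. NF-kB binds a short site, searched here as GGANTTTCC, and AP-1, the FOS and JUN dimer, the site TGANTCA. Promoters of 16 of the 19 genes were matched in RefSeq. On either strand 9 of them (56.2%) held the NF-kB letters and 3 (18.8%) the AP-1 letters, against 1.64% and 7.76% of all promoters. The members were chosen as NF-kB genes, so these shares describe the list and not the effect of ARA-C. Among the 12 largest rises, 0 of 8 matched promoters held the NF-kB letters. Among immediate early and AP-1 genes, 1 of 14 (7.14%) held the AP-1 letters. The 9 NF-kB genes with the NF-kB letters were CXCL8, CXCL1, CXCL2, CXCL3, IL6, NFKBIA, NFKB1, TNFAIP3 and ICAM1. Of these, CXCL8, CXCL1, TNFAIP3 and ICAM1 rose, NFKB1 fell and the other 4 did not pass. The 250 bases before the start are shown for 3 of those that rose, with the matches in capitals: CXCL8 (chr4:73740319-73740568, AP-1 first, then NF-kB), ICAM1 (chr19:10270870-10271119) and TNFAIP3 (chr6:137867009-137867258), all on the plus strand of GRCh38.p14, with the matches of ICAM1 and TNFAIP3 read on the other strand.
CXCL8: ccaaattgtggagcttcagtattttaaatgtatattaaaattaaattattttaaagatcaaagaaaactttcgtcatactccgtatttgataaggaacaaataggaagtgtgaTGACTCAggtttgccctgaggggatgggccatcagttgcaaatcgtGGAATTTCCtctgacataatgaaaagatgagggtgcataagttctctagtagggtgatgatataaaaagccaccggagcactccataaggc
ICAM1: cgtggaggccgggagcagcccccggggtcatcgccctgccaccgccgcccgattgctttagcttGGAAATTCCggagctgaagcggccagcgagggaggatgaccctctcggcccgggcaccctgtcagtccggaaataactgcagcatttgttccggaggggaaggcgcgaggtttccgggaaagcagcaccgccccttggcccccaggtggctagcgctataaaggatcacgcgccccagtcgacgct
TNFAIP3: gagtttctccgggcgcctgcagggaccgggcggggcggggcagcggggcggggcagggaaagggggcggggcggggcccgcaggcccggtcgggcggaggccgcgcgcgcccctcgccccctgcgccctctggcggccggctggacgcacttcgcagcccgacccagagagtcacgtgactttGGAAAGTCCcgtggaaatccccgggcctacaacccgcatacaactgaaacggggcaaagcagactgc

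CXCL8, interleukin 8, a neutrophil chemoattractant, gave 3627, 4111 and 3004 in ARA-C-treated cells, against 347.2, 301.1, 459.1, 544.2 and 443.8 in vehicle-treated cells, an 8.66-fold rise with no overlap (3.11 ± 0.18, adjusted p = 3.1e-12). ICAM1, an adhesion receptor for leukocytes, gave 604.7, 566.5 and 603.8 with ARA-C and 177.9, 190.2, 186, 214.2 and 239.8 with vehicle (1.56 ± 0.20, adjusted p = 2e-06). TNFAIP3, the A20 inhibitor of NF-kB, was dimmer, at 107, 118.5 and 144.8 with ARA-C and 58.04, 52.34, 41.38, 26.28 and 42.77 with vehicle (1.52 ± 0.31, adjusted p = 0.00045). The interleukin 1 genes rose together. IL1B gave 735.1, 772.9 and 579.7 in ARA-C-treated and 110.2, 99.46, 137.7, 97.64 and 98.47 in vehicle-treated cells (2.68 ± 0.22, adjusted p = 1.7e-09), and IL1A averaged 2536 ± 458 and 878 ± 56.3 (1.52). IL11, of the interleukin 6 family, gave 442.9, 297.1 and 307.9 with ARA-C and 28.32 to 54.18 with vehicle (3.15 ± 0.35, adjusted p = 2.1e-07). CCL20, a lymphocyte chemokine, gave 128.3, 79.58 and 76.8 with ARA-C and lay on the floor in all 5 vehicle arrays, a rise of at least 9.22-fold. The pentraxin PTX3 (2.46), the chemokine CXCL1 (1.98), the cytokine LIF (1.87) and the prostaglandin synthase PTGS2 (0.93) rose, and NFKB1, the p105 precursor, fell by 0.58. IL6 was at 10, 10.97 and 11.12 with ARA-C and at 10 in every vehicle array.

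Immediate early and AP-1 genes were higher for 11 of 17 and lower for 1, and for 13 and 2 against vehicle replicates 4 to 6. FOS gave 1401, 1192 and 1143 in ARA-C-treated cells, against 612.5, 406.6, 313.1, 320.7 and 584.1 in vehicle-treated cells (1.53 ± 0.19, adjusted p = 8.6e-07). FOSB (1.58), MAFF (1.15) and JUN (1.07), further bZIP factors, rose with it, and IER2 fell by 0.28. With a common median per array 7 of the 17 were higher and 0 lower. JUN showed the plate difference of this list, with 1434, 1350 and 1446 with ARA-C, against 1240 and 821.1 in the vehicle arrays of rows A-F and 486.2 to 555 in those of rows G-H.

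Interferon-stimulated genes were higher for 11 of 23 and lower for 0 (median 1.04), and 7 and 0 against vehicle replicates 4 to 6. SP100, a nuclear body protein, gave 440.1, 377.8 and 442.3 with ARA-C and 126.5, 97.22, 66.94, 62.49 and 76.95 with vehicle (2.33 ± 0.32, adjusted p = 5e-06). RIGI, the sensor of foreign RNA, gave 273.2, 286 and 224.1 in ARA-C-treated and 62.43 to 102.2 in vehicle-treated cells (1.63, adjusted p = 2.2e-06). OAS1, which makes oligoadenylates (2.59), IFI6 (2.01) and the ubiquitin-like ISG15 (0.54) rose, while IFIT1, which binds viral RNA, was at 0.85 and did not pass (adjusted p = 0.11). MHC class I genes were higher for 6 of 11 and lower for 0. HLA-B gave 986, 850.9 and 1034 with ARA-C and 140.4, 156, 208.2, 128.4 and 167.8 with vehicle, a mean of 957 ± 94.8 and 160 ± 30.8 (2.59 ± 0.20, adjusted p = 6.9e-10). HLA-C gave 863.1, 841.2 and 896.8 with ARA-C and 203.3 to 259.1 with vehicle (1.97 ± 0.18, adjusted p = 1.4e-08). HLA-F, HLA-G and HLA-E rose by 0.98, 0.86 and 0.84, and B2M, the shared light chain, by 0.25, although B2M did not pass against replicates 4 to 6 (adjusted p = 0.13). Class I genes are near copies of each other, and their probe sets may read more than 1 of them.

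Extracellular matrix genes were higher for 18 of 27 and lower for 2 (median 0.89), and 20 and 2 against vehicle replicates 4 to 6. COL11A1, a fibrillar collagen of cartilage, gave 479.3, 454.8 and 434.2 in ARA-C-treated cells, against 44.91 to 98.37 in vehicle-treated cells (2.87 ± 0.24, adjusted p = 2e-09). TGFBI, a TGF-beta-induced matrix protein, gave 3676, 4113 and 3739 with ARA-C and 798.9, 819.8, 916.7, 856.1 and 1101 with vehicle (2.10 ± 0.13, adjusted p = 2e-11). COL1A1, of type I collagen, gave 2604, 2518 and 3036 with ARA-C, against 1166 and 1083 in the vehicle arrays of rows A-F and 664.4, 534.1 and 638.3 in those of rows G-H. Its rise was 1.80 over all 5 and 2.15 over replicates 4 to 6. COL1A2, its partner chain, fell by 0.60, and the proteoglycan DCN by 0.52. THBS2 (2.12), COL6A2 (1.85) and FBN1 (1.41), a matricellular protein, a collagen and a fibrillin, rose. The enzymes that cut matrix and their inhibitors were higher for 12 of 17 and lower for 1 (median 0.90), with 4 not called. MMP3, stromelysin, gave 3929, 2912 and 2913 with ARA-C and 382, 242.2, 281.6, 263.4 and 263.5 with vehicle, an 11.4-fold rise (3.51 ± 0.16, adjusted p = 6.6e-14). MMP9, a gelatinase, gave 224.7, 281 and 582.7 with ARA-C and 38.49 to 68.66 with vehicle (2.71), and the inhibitors TIMP2 (1.96) and TIMP3 (1.57) rose. MMP1, interstitial collagenase, was bright in both groups, at 20367 with ARA-C and 10893 with vehicle on average (0.90). MMP11 fell by 1.02, and not against replicates 4 to 6 (adjusted p = 0.067). Contractile genes were higher for 5 of 15 and lower for 1, and for 9 and 1 against vehicle replicates 4 to 6. Against the 5 vehicle arrays calponin, CNN1, was at 1.64 and smooth muscle actin, ACTA2, at 0.97.

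Lysosome genes were higher for 13 of 19 and lower for 0 (median 0.62). Besides GPNMB, CTSK, a cathepsin that degrades collagen, gave 412.9, 446.5 and 461.1 in ARA-C-treated cells, against 114.9 to 141 in vehicle-treated cells (1.78 ± 0.18, adjusted p = 3.2e-08). NPC2, which hands on cholesterol, rose by 1.28 and LAMP2, of the lysosomal membrane, by 1.23. The IGF axis was higher for 7 of 13 and lower for 0 (median 0.78). IGFBP5, an IGF-binding protein, gave 499.9, 339.6 and 432.6 with ARA-C and 49.03, 37.69, 43.79, 48.58 and 60.55 with vehicle (3.14 ± 0.31, adjusted p = 2.6e-08), and IGFBP4 (2.29) and IGFBP7 (1.92) rose beside the ligand IGF1 (0.93). Neuronal genes were higher for 7 of 20 and lower for 1. NPY, neuropeptide Y, gave 1526, 1548 and 2037 in ARA-C-treated and 257.2, 258.2, 195, 166.1 and 196 in vehicle-treated cells (3.00 ± 0.15, adjusted p = 4.3e-13), and the synaptic proteins SNAP25 (1.41) and SYT1 (1.23) rose.

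Of 15 oxidative stress and glutathione genes 3 rose and 1 fell. HMOX1, heme oxygenase, gave 500.3, 467.4 and 659.6 with ARA-C and 34.24 to 90.22 with vehicle (3.35 ± 0.34, adjusted p = 6.2e-08), the aldo-keto reductase AKR1C1 rose by 2.18, and GSR, glutathione reductase, fell by 0.93. Of 11 polyamine genes 2 rose and 3 fell. SAT1, which starts polyamine breakdown, gave 780, 666.3 and 665.4 in ARA-C-treated cells, against 134.1 to 182.5 in vehicle-treated cells (2.17 ± 0.18, adjusted p = 2.4e-09), and SMOX, an oxidase of spermine, rose by 0.67. The synthetic enzymes ODC1, SRM and SMS fell by 0.54, 0.68 and 0.59. Among 24 glycolysis and hypoxia genes 4 rose and 5 fell, with adrenomedullin, ADM, at 2.60 and NDRG1 at 2.19. Of the BCL2 family 7 of 15 rose and 1 fell (2 and 2 with a common median per array), and BCL2A1, a survival protein, gave 177, 100.2 and 161.2 with ARA-C, against 10 to 43.69 with vehicle (2.76, adjusted p = 0.00012).

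Genes of cholesterol synthesis and uptake were lower for 7 of 15 and higher for 0 (median -0.36). DHCR7, the last enzyme of the pathway, gave 2056, 1790 and 1778 in ARA-C-treated cells, against 2851, 3257, 2961, 2820 and 3109 in vehicle-treated cells (-0.68 ± 0.11, adjusted p = 3.3e-05). MVD (-1.23), MVK (-0.91 on its brightest probe set), FDPS (-0.50) and HMGCS1 (-0.46), enzymes of the mevalonate steps, were lower. Ribosome biogenesis genes were lower for 8 of 16 and higher for 0 (median -0.20), and for 6 against vehicle replicates 4 to 6, with the methyltransferase NOP2 at -0.61, RRP9 at -0.62 and NOP16 at -0.67. Cytosolic ribosomal protein genes were lower for 2 of 23, RPL3 (-0.33) and RPL35 (-0.26), and higher for 0 (median 0.04). Unfolded protein and amino acid response genes were higher for 6 and lower for 3 of 19 (3 and 3 with a common median per array), with DDIT3 (CHOP) at 1.12 and PSAT1, of serine synthesis, at -0.77. Heat shock genes were higher for 3 and lower for 3 of 15, and for 1 and 5 against vehicle replicates 4 to 6.

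**Figure D3:**
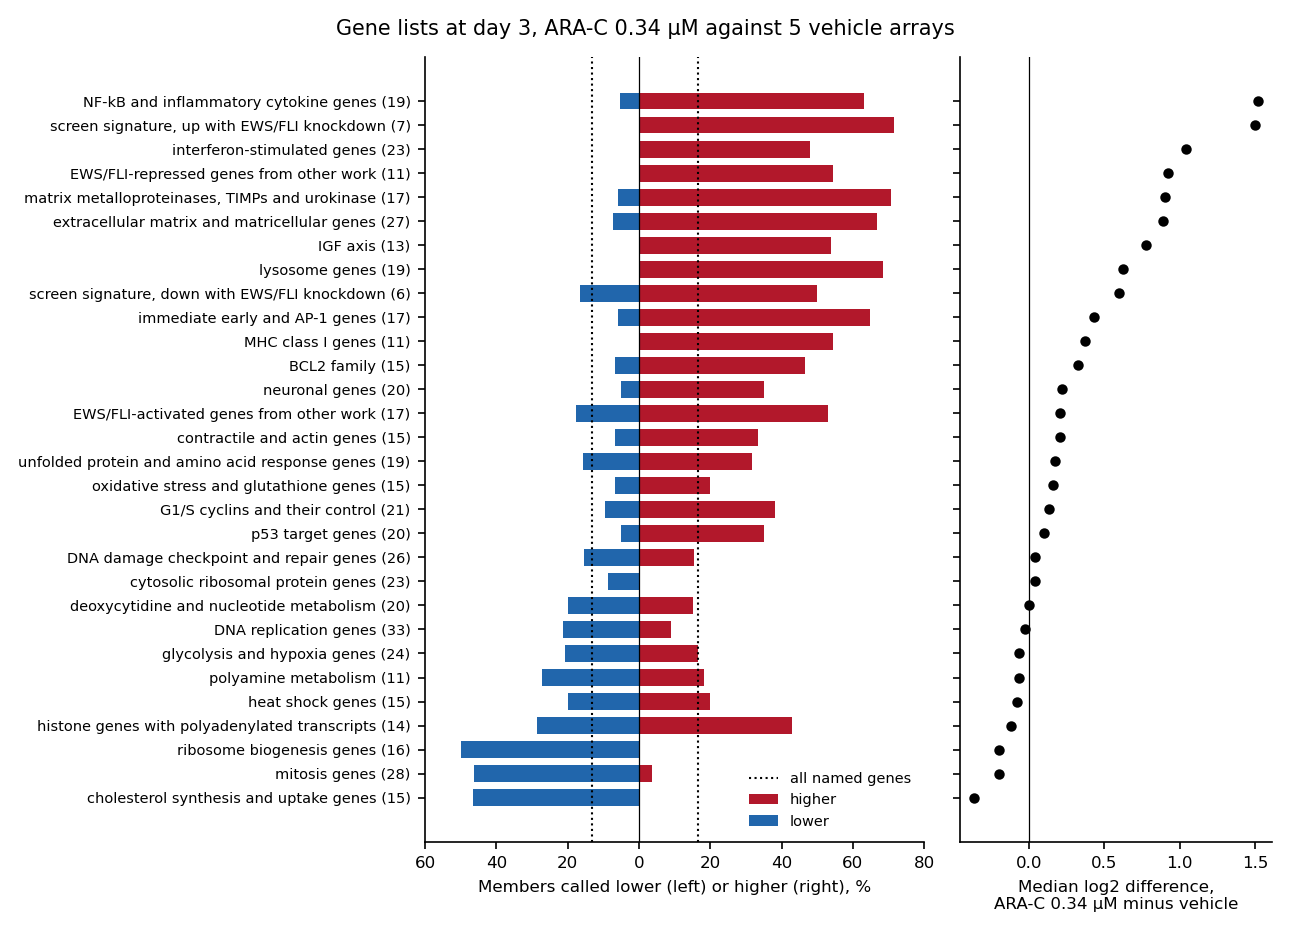
Share of the measured members of each gene list that were higher or lower in ARA-C-treated than in vehicle-treated cells at day 3 (percent of members), with the number measured in brackets, and the median log2 difference of each list. Dotted lines mark the shares over all named genes, 16.6% higher and 13.2% lower. The NF-kB, lysosome, matrix and protease lists lie toward higher, and the mitosis, cholesterol and ribosome biogenesis lists toward lower.

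Whether ARA-C moved the cells toward the state seen when EWS/FLI is lost was the question of the study, which had listed 66 probe sets up and 77 down after knockdown of EWS/FLI in Ewing sarcoma cells. ARA-C was picked by the study for its effect on a screen signature of such genes, so the direction of these lists is not independent evidence. Of the 66, 34 were higher and 0 lower, with 32 not called (median 0.64), against 12.8% and 12.7% of all probe sets. Their mean log2 signal was 8.49, 8.34 and 8.36 in the ARA-C arrays and 7.80, 7.59, 7.39, 7.40 and 7.61 in the vehicle arrays, which did not overlap. HSD17B2, a steroid dehydrogenase, gave 475, 304.6 and 346.4 with ARA-C and 21.17 to 57.11 with vehicle (3.37 ± 0.27, adjusted p = 1.1e-09). OPTN, an autophagy receptor, gave 239.5, 275 and 245.5 with ARA-C and 15.58 to 48.03 with vehicle (2.98). CXCL8, GEM, a small GTPase (2.48), PTX3 and SAT1 were also among the 34.

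The 77 probe sets that are down after knockdown were also more often higher than lower, with 32 higher, 9 lower and 36 not called (median 0.27), and with 18 higher and 12 lower when each array was shifted to a common median. Their mean log2 signal was 9.73, 9.69 and 9.76 in the ARA-C arrays and 9.63, 9.46, 9.36, 9.38 and 9.46 in the vehicle arrays, with no overlap. CES1, a carboxylesterase, gave 11984, 10066 and 9366 in ARA-C-treated cells, against 2079, 2114, 1616, 1722 and 1899 in vehicle-treated cells (2.47 ± 0.15, adjusted p = 1.2e-11). CCK, cholecystokinin, was on the floor in all vehicle arrays and gave 72.19, 42.21 and 23.8 with ARA-C. LBH, a transcription cofactor, and FCGRT, the Fc receptor of recycled antibody, rose by 1.61 and 1.59. Among the 9 that fell was the homeobox gene HOXD13, with 152.2, 86.46 and 123.5 with ARA-C and 240.3 to 380.3 with vehicle (-1.48 ± 0.25, adjusted p = 6.9e-05), and GLI1, an effector of hedgehog signalling, which gave 55.1, 23.71 and 25.8 with ARA-C and 42.5 to 134.6 with vehicle (-1.34, adjusted p = 0.013). GLI1 did not pass against vehicle replicates 4 to 6 (adjusted p = 0.11).

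**Figure D4:**
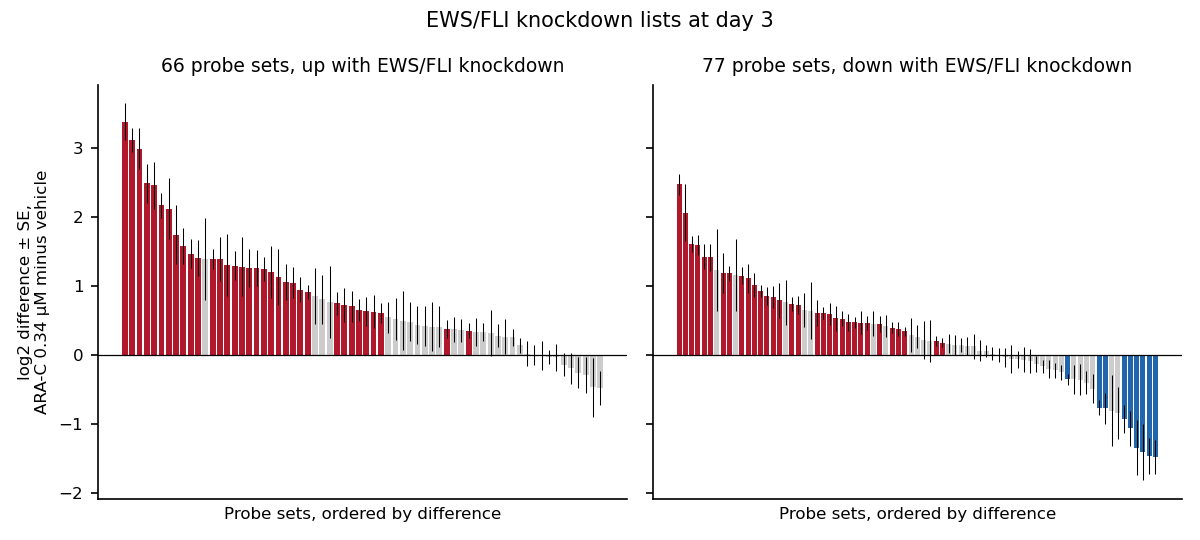
Log2 difference of each probe set (ARA-C 0.34 µM minus vehicle, day 3) for the 66 probe sets up and the 77 down after EWS/FLI knockdown in the study's lists, as bars with the SE, in red where called higher, blue where called lower and grey where not called. The medians are 0.64 and 0.27, and 9 of the 77 and 0 of the 66 were called lower.

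The screen signature itself gave a similar picture. Of its 7 genes that rise with knockdown, CXCL8, SP100, IGFBP7 (1.92), FHL2 (1.5) and PDGFA (1.26) were higher, while ATXN1 (0.37) and HSPB3 (1.40) did not pass. Of its 6 that fall with knockdown, FCGRT, CDH12 (1.48) and PPP1R1A (0.47) were higher, GLI1 was lower, and SSX2 (0.54) and SSX3 (0.65) did not pass. Of 17 genes known from other work to be activated by EWS/FLI, 9 were higher and 3 lower (median 0.21; 5 and 2 with a common median per array), the 3 being GLI1, BCL11B (-0.61) and ID2 (-0.32). Of 11 known to be repressed, 6 were higher and 0 lower (median 0.92), namely CDKN1A, the hyaluronan receptor CD44 (1.75), CCN1 (1.56), the Wnt inhibitor DKK1 (1.46), PHLDA1 (1.08) and the lysyl oxidase LOX (0.92). CCN1 gave 1310, 1234 and 1280 with ARA-C, against 1056 and 763.2 in the vehicle arrays of rows A-F and 204.6 to 401.5 in those of rows G-H. Another probe set of CCN1 did not pass (0.82, adjusted p = 0.072). The 2 genes of the fusion were read by several probe sets. The brightest of FLI1 gave 2613, 2591 and 3329 in ARA-C-treated cells, against 2557 to 3647 in vehicle-treated cells (-0.10, adjusted p = 0.72). Another gave 816.8, 543 and 552.2 with ARA-C and 1769, 1389, 1704, 1491 and 1891 with vehicle (-1.39 ± 0.21, adjusted p = 1.6e-05). A further one, named FLI1 in the study's list and without a symbol in the annotation used here, was among the 9 of the 77 that fell, with 272.1, 291.8 and 281.9 with ARA-C and 960.4, 552.5, 732.2, 773.1 and 940.3 with vehicle (-1.46 ± 0.27, adjusted p = 0.00015). The FLI1 probe sets thus did not move alike, and these 2 lay below all vehicle arrays. The brightest of EWSR1 gave 3823, 3545 and 3554 with ARA-C and 3902 to 5114 with vehicle (-0.28, adjusted p = 0.0084), and did not pass against replicates 4 to 6 (adjusted p = 0.067). Which of them read the fusion transcript and which the normal alleles cannot be told apart here. The study measured the EWS/FLI transcript in A673 cells by quantitative PCR, at the same dose and time among others. It reported no decrease with ARA-C but an increase with dose, while EWS/FLI protein fell on Western blots. Whether the lower FLI1 probe sets reflect the fusion transcript was not tested.

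At day 3 the dose of 0.34 µM was set against 0.17 µM, each relative to the vehicle arrays of its own plate part. Their difference passed for 70 probe sets higher (0.315%) and 11 lower (0.0495%) at 0.34 µM (65 and 27 after quantile normalization), and for 0 of the 24 genes with the largest changes. All 12 of the largest rises passed at 0.17 µM as well, and 5 of the 12 falls. GPNMB averaged 2372 ± 45.6 at 0.34 µM and 1627 ± 223 at 0.17 µM (difference in log2 change 0.58 ± 0.28, adjusted p = 0.36). At 0.17 µM 10 of the 19 NF-kB genes and 12 of the 19 lysosome genes were higher and 10 of the 28 mitosis genes lower, against 9.33% of named genes higher and 9.95% lower at that dose. Of the 66 probe sets up after knockdown 19 were higher, against 7.38% of all probe sets higher and 8.57% lower. Some of the named dose differences came with a difference between the vehicle arrays. CCN2, a matricellular growth factor, averaged 1621 ± 197 at 0.34 µM and 1855 ± 326 at 0.17 µM, while vehicle averaged 540 ± 298 in rows G-H and 2194 ± 327 in rows A-F (difference 1.96, adjusted p = 0.013). TOX3, an HMG box factor, differed between the doses themselves, at 1008 ± 23 and 409 ± 35.0, with 300 and 423 in the vehicle arrays of rows G-H and A-F (1.90, adjusted p = 0.035). This holds for 1 probe set of TOX3, and the other 2 gave 0.58 and 0.59 for the same difference and did not pass (adjusted p = 0.42 and 0.37). Dose lies across plate parts, so beyond this adjustment dose and plate part cannot be told apart. Of the 3 arrays at 0.17 µM, replicate 3 stood apart from the others with a median signal of 213. Only 0.221% of its values lay under 10, against 19.4% and 20.1% in replicates 1 and 2 at that dose. Falls to low signals are thus hard to see on replicate 3, and its part in the 5 of 12 falls that passed was not tested. The 81 calls were 3 with no intensity trend, 53 without that array and 1159 when the doses were set against each other directly. Leaving out any 1 of the other arrays gave 8 to 107, with 35, 29 and 37 without replicates 1, 2 and 3 at 0.34 µM, 23 without replicate 2 at 0.17 µM, and 8, 21 and 8 without vehicle replicates 1, 4 and 5.

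Over time, in plate rows G-H, the change with ARA-C was higher at day 3 than at 24 h for 1152 probe sets (5.19%) and lower for 2535 (11.4%), or 1827 and 1918 after quantile normalization. The median of this difference over all probe sets was -0.204. It was 0.000 without ARA-C 24 h replicate 2, and -0.265 and -0.290 without replicates 1 and 3 of that group. Against day 5 the change at day 3 was higher for 3608 (16.2%) and lower for 1709 (7.69%), or 2571 and 2584 after quantile normalization. A lower change can be a smaller rise or a larger fall, and such splits moved with the scaling. CXCL8 averaged 2411, 3581 and 4090 in ARA-C-treated cells at 24 h, day 3 and day 5, and 755, 482 and 79.8 in vehicle-treated cells. Its level with ARA-C rose and its level with vehicle fell, giving differences of 1.68, 2.89 and 5.71. MMP3 followed the same course, at 981, 3251 and 9157 with ARA-C and 296, 270 and 71.8 with vehicle, and its day 3 minus day 5 change was -3.45 ± 0.24 (adjusted p = 1.9e-08). GPNMB averaged 225, 2372 and 5060 with ARA-C at the 3 times and 76.3, 81.9 and 47.2 with vehicle. Of the 12 largest rises, 9 were larger at day 3 than at 24 h, 10 had already passed at 24 h, and all 12 passed at day 5. These 12 were picked for their change at day 3 on the same arrays, which favours a larger change at day 3 than at 24 h. SEMG1, the tetraspanin-like TM4SF1 and GPNMB had the largest gains over 24 h among named genes (3.97, 3.36 and 3.31).

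The histone H2BC5 did not pass at 24 h, with 755 in ARA-C-treated and 814 in vehicle-treated cells (-0.11, adjusted p = 0.51), and reached 3764 and 1381 at day 3 and 5903 and 1064 at day 5 in the same order. Its change at day 3 exceeded that at 24 h by 1.55 (adjusted p = 4.7e-06). HLA-B averaged 380, 957 and 1206 with ARA-C and 200, 168 and 892 with vehicle at 24 h, day 3 and day 5, so that the difference was greatest at day 3 (0.92, 2.53 and 0.43). PLK1 averaged 1702, 1073 and 1221 with ARA-C and 3069, 2775 and 3736 with vehicle. In the fit of these 3 times, named genes were higher for 16.7% and lower for 5.09% at 24 h, 19.1% and 13.1% at day 3, and 17.9% and 26.4% at day 5, and the change at day 3 was higher than at day 5 for 19.9% and lower for 8.58%. Against these shares, of 28 mitosis genes 18 were lower at 24 h, 14 at day 3 and 22 at day 5, and for 9 the change at day 3 was higher than at day 5. Replication genes were higher for 12 of 33 and lower for 1 at 24 h, and for 11 and 11 at day 5.

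Cholesterol genes were lower for 4 of 15 at 24 h and 7 at day 3, while at day 5 they were higher for 6 and lower for 3, and for 9 the change was lower at day 3 than at day 5. Ribosome biogenesis genes were lower for 6 of 16 at 24 h and 6 at day 3 and higher for 13 at day 5, and for 12 the change was lower at day 3 than at day 5. Unfolded protein and amino acid response genes were higher for 12 of 19 at 24 h, 8 at day 3 and 4 at day 5, when 10 were lower. The 77 probe sets down after knockdown were higher for 25 and lower for 2 at 24 h, 34 and 11 at day 3, and 13 and 44 at day 5, and the day 3 change was higher than that of day 5 for 48 of them. The 66 were higher for 37, 36 and 32 and lower for 0, 1 and 12 at the 3 times. Of all probe sets 14.9% were higher at each time, and 4.05%, 13.1% and 23.9% were lower at 24 h, day 3 and day 5. The median change of all probe sets was 0.27 at 24 h, 0.01 at day 3 and -0.03 at day 5. The part of ARA-C 24 h replicate 2, named above, in the 24 h counts was not tested. Vehicle-treated cells also moved with time, and an earlier analysis of the series had found day 5 vehicle cells in differing states. The day 5 counts above rest on the vehicle arrays of rows G-H alone, and the part of the vehicle cells in them was not tested. TXNIP, which inhibits thioredoxin, averaged 300 and 184 in ARA-C-treated cells at day 3 and day 5 and 214 and 3011 in vehicle-treated cells, and ALDOC, an aldolase, 60.2 and 50.3 with ARA-C and 125 and 2445 with vehicle. The day 3 minus day 5 changes of 4.56 and 4.84 in these genes thus came with changed vehicle levels. RGS5, a regulator of G protein signalling, averaged 770 and 1683 with ARA-C and 1091 and 75.8 with vehicle (-5.08).

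**Figure D5:**
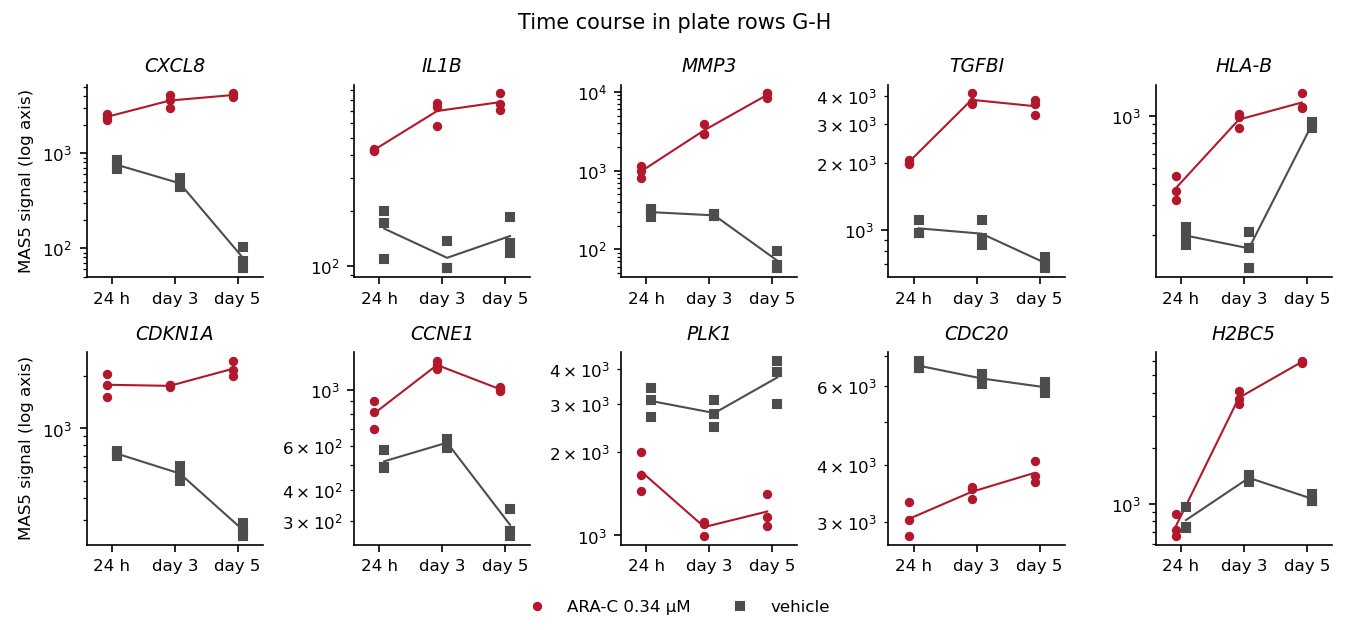
Signal of each array on a log axis at 24 h, day 3 and day 5 for 10 genes in ARA-C-treated (0.34 µM) and vehicle-treated cells, arrays of plate rows G-H. Lines join the group means. On average CXCL8 and MMP3 with ARA-C reach 4090 and 9157 at day 5 while vehicle falls to 79.8 and 71.8, and HLA-B with vehicle climbs to 892 at day 5.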

How the data were processed

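RNA of A673 cells was hybridised to Affymetrix high-throughput arrays. The authors deposited intensity values, MAS5 signals on a linear scale with 1 scaling factor per array; the version of MAS5 is not given in the sources used here. Of 22930 probe sets listed, 715 control probe sets were left out and 22215 tested, of which 19230 carried 1 gene symbol, 125 several and 2860 none. Genes were named only from probe sets with 1 symbol, with coordinates and promoters of RefSeq on GRCh38.p14. Signals were floored at 10 and set on the log2 scale. Groups came from the labels and plate rows from the study's list of arrays. One limma 3.58.1 fit (R 4.3.3; lmFit, eBayes with intensity trend) over the 23 day 3 arrays gave the comparisons with all 5 vehicle arrays, and a fit with vehicle split by plate part gave those with replicates 4 to 6 and the dose difference; the time differences came from the 18 arrays of ARA-C and vehicle in rows G-H. Adjusted p-values are Benjamini-Hochberg over all probe sets, with a threshold of 0.05, and all adjusted p-values in the text are limma's. A list was described by the brightest probe set of each gene. Control probe ratios were compared by two-sided exact permutation. Where a value at the floor stands against a brighter one, the fold is a lower bound.

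The genes named were the 12 largest rises and 12 largest falls among probe sets called in both comparisons, with no overlap between the arrays and a group mean of at least 100, up to 4 called members of each list with the largest change and members a description turns on, the genes of the screen signature, EWSR1 and FLI1, and up to 4 of the largest dose and time differences in each direction. The members and lists were chosen with earlier results of these data known. The fit was tested on simulated data with 200 changed genes. Alternatives were quantile normalization, a common median per array, floors of 1 and 32, a cap of 16000, a minimum signal of 50, a fit of the compared arrays alone, all 68 arrays, no intensity trend, a replicate block, doses compared directly, leaving out each array, and, chosen after seeing the data, plate part as a block, 67 arrays, leaving out ARA-C 0.17 µM replicate 3, and leaving out the other arrays of the dose and time differences. The 3 to 5 arrays per group limit the precision. Python 3.11.15 with numpy 2.4.6, scipy 1.17.1, pandas 2.3.3 and matplotlib 3.10.9 was used for summaries and figures.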

Additional observations from a re-analysis of the deposited data

Results flagged for a closer look

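In 9 of 151 groups of 5 vehicle arrays, 1 array stood apart from the other 4 (Dixon's test); chance marks about 1 in 20 groups. GALNT3 was 19.6 in replicate 2 and 10 in the others, HSPB3 30.8 in replicate 2 and CRYAB 20.3 in replicate 4, with 10 in the others. For GALNT3, HSPB3 and CRYAB the other 4 values were tied at the floor. Any value above the floor is then marked, and the rate of 1 in 20 does not apply. THBS2 was 36.9 in replicate 6, against 10 to 14.5, and XRCC4 417 in replicate 6, against 362 to 376. TIMP2 was 219 in replicate 4, against 289 to 322, LAMP2 802 in replicate 5, against 980 to 1058, H2BC5 1318 in replicate 5, against 1395 to 1426, and HOXD13 240 in replicate 2, against 340 to 380. In all of these but HSPB3 the 3 ARA-C arrays lay apart from all 5 vehicle arrays. Over all 22215 probe sets the ARA-C arrays lay above all vehicle arrays in 3220 and below them in 3059. The genes other than HSPB3 were named for called changes, and the rule that named GALNT3 required no overlap, so this separation is no added result.

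The difference of 2 effects passed limma's test for 81 probe sets by dose (0.34 minus 0.17 µM), 3687 for day 3 minus 24 h and 5317 for day 3 minus day 5. By dose the largest among named genes were TAF15 (2.15), an RNA-binding protein, CCN2 (1.96), CCN1 (1.90) and TOX3 (1.90), and, in the other direction, the chaperone CALR (-1.90), the glutathione transferase GSTP1 (-1.39), EMC9 (-0.94) and RPL3 (-0.66, another probe set than that of the list). TAF15 averaged 850 and 831 at 0.34 and 0.17 µM, with 195 and 870 in vehicle arrays of the same plate parts. In the same order CCN1 averaged 1275 and 1171, with 277 and 910 in vehicle arrays, and GSTP1 3156 and 7893, with 5672 and 5414.

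For day 3 minus 24 h the largest were SEMG1 (3.97), TM4SF1 (3.36), GPNMB (3.31) and PDE4DIP (3.06), and UTP18 (-4.56), MVK (-4.31), XYLB (-3.94) and the initiator caspase CASP8 (-3.78). For day 3 minus day 5 the largest were ALDOC (4.84), EFHD1 (4.60), TXNIP (4.56) and CLMN (4.42), and RGS5 (-5.08), MMP3 (-3.45), THBS1 (-3.43) and CD44 (-3.42). EFHD1 averaged 31 and 415 with vehicle at day 3 and day 5, and 117.5 and 78.4 with ARA-C. CLMN averaged 18.2 and 358 with vehicle, and 83.2 and 79.0 with ARA-C, so these 2 differences also came with changed vehicle levels.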

How the results depend on the processing

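Among the 152 genes named by the rule, no call in either comparison with vehicle reversed under any alternative run. Of 3190 gene results against the 5 vehicle arrays, 3003 kept their side of the threshold, 177 lost the call and 10 gained one; against replicates 4 to 6, 2457 of 2582 kept it, 105 lost it and 20 gained one. Among those lost when 1 array was left out were NFKB1, BAX and CCND2 without ARA-C replicate 2, IER2 without ARA-C replicate 3, HLA-F without either of these or vehicle replicate 5, GLI1 without ARA-C replicate 2 or 3, and CENPF, MMP11, CCNE2 or PPP1R1A without 1 of several arrays. With a floor of 32 CDA, CCK and CDH12 were lost.

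Fitted over all 68 arrays, 1967 probe sets were called against the 5 vehicle arrays (1267 higher, 700 lower) and 1931 against replicates 4 to 6 (1299, 632), in place of 5671 and 5505; among the calls then lost were CDC20, NFKB1, JUN, DHCR7, CDKN1B and NOP2. With 67 arrays, without 1 array that resembled blood, 3998 and 4225 were called. With the replicate block 3536 were called against the 5 vehicle arrays (1610 higher, 1926 lower), and TNFAIP3, JUN, CCN1 and CDH12 were among those lost. Only numbers 1 and 2 are shared by the 2 groups, whose same-numbered arrays did not deviate together (r = -0.024 and -0.0139 over probe sets), so the numbers are not taken to pair the arrays; the block rests on vehicle replicates 1 and 2, both of rows A-F, and gave JUN 0.51 and CCN1 0.53 in place of 1.07 and 1.56. Against replicates 4 to 6 the block was not run, since no number is shared. The block left 3470 calls for day 3 minus 24 h.

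The dose difference, 81 probe sets, was 3 with no intensity trend, 53 without ARA-C 0.17 µM replicate 3, and 1159 with the doses set against each other directly (488 higher, 671 lower). Leaving out 1 array at a time gave 4474 to 5507 calls against the 5 vehicle arrays, 4419 to 4992 against replicates 4 to 6, 8 to 107 for dose beside the 53 above, 2963 to 3766 for day 3 minus 24 h and 4510 to 5199 for day 3 minus day 5. Without ARA-C 0.17 µM replicate 3, which only shares the fit, 6222 and 6080 were called against the 5 vehicle arrays and replicates 4 to 6. Against replicates 4 to 6 the 3′ minus 5′ differences were 1.200 for ACTB and 0.385 for GAPDH, and the 3′ minus middle differences 0.632 and 0.157, at an exact p of 0.1, the smallest that 3 against 3 allows. Of 1470 counts of list members over all settings, 1282 stayed within 1.5 times and 188 did not, and the medians of the nucleotide, repair and ribosomal protein lists changed sign when all probe sets of a gene were averaged. The same averaging gave medians of 0.93 for the NF-kB genes (1.52 by the brightest), 0.56 for matrix (0.89), 0.46 for genes repressed by EWS/FLI (0.92), 0.41 for the IGF axis (0.78), -0.36 for mitosis (-0.20), -0.63 for cholesterol (-0.36), -0.33 for ribosome biogenesis (-0.20), -0.09 for replication (-0.03), 0.06 for G1/S (0.13) and 0.22 for p53 targets (0.10). Dim probe sets, those under 10, give no order below the floor. The causes of these differences were not tested.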
